A study of Mus musculus with 6 samples.

Results

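The 10 genes described here encode the enzymes and chaperones that modify and fold procollagen in the endoplasmic reticulum: the prolyl 4-hydroxylase alpha subunits P4ha1, P4ha2 and P4ha3, their shared beta subunit P4hb, the lysyl hydroxylases Plod1, Plod2 and Plod3, the prolyl 3-hydroxylase P3h1 with its partner Crtap, and the collagen chaperone Serpinh1. They were chosen by name, with earlier results of these data known. All 10 had a row among the 20645 genes listed and passed the filter on low counts that left 13566 genes for testing. The data are RNA sequencing counts from 6 libraries of lung mesenchymal stromal cells (MSC) from C57BL/6 mice of genotype Tbx4-rtTA/TetO-Cre/mT-mG. All mice received doxycycline from embryonic day 6.5 to postnatal day 1, which turns on Cre where the lung mesenchyme regulator Tbx4 drives the rtTA transactivator. Cre then switches the membrane reporter from red TdTomato to green GFP, so the 3 green libraries (mG) are cells in which the driver was active or their descendants, and the 3 red libraries (mT) are cells without that switch. Both groups share genotype and doxycycline. The age at which lungs were taken, and whether replicates are separate animals, are not stated in the sources used here, and each p-value therefore reflects spread among these libraries that could be technical.

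Fibrillar collagen becomes stable only after its chains have been modified. Prolyl 4-hydroxylases, built from a catalytic alpha subunit and P4hb, which is also the protein disulfide isomerase, make the hydroxyproline that holds the triple helix together at body temperature, and they need oxygen, iron, alpha-ketoglutarate and ascorbate. Lysyl hydroxylases make the hydroxylysine that carries sugars and sets the type of cross-link, P3h1 acts in a complex with Crtap and the cyclophilin Ppib, and Serpinh1 (also called HSP47) binds the folded helix until it leaves the endoplasmic reticulum. In the lung these steps serve fibroblasts, smooth muscle and pericytes, and raised Plod2 and P4ha genes are known from fibrosis and hypoxia.

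Total counts ran from 16853561 to 19429138 per library. Mesenchymal markers summed to 12195 to 27253 CPM per library over 9 genes (CPM are read counts relative to the TMM-scaled library total). Col1a1, Col1a2 and Vim were the highest of these, at 1121 to 11670 CPM. Dcn ran from 4.73 to 94.3 CPM, and Lum from 0 CPM in mT replicate 2 to 25.6 CPM in mG replicate 2. Of 8 epithelial markers only Scgb1a1 had a row, with 1 to 8 counts per library, and 6 leukocyte markers in the table summed to 2.56 to 16.8 CPM. The 7 endothelial markers with a row summed to 52.1 CPM in mT replicate 1 and to 0.419 to 12.3 CPM in the others, with Cdh5 at 0 in 4 libraries. The smooth muscle markers, which these stromal cells also express, summed to 7149 to 10980.2 CPM in mT and 2009 to 14921 CPM in mG. The library mG replicate 2 stood apart. Its 13 cartilage genes in the table summed to 5198 CPM, against 1669 and 1917 CPM in mG replicates 1 and 3 and 439 to 949.9 CPM in mT. Outside mG replicate 2 most of that sum was Col11a1, at 1617 and 1864 CPM in mG replicates 1 and 3 and 381 to 845 CPM in mT. The smooth muscle sum of mG replicate 2 was the lowest of the 6 libraries. Because these are bulk samples, fewer cells of a type and less RNA per cell cannot be told apart.

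None of the 10 genes passed the test between mG and mT. Across all genes, edgeR's quasi-likelihood test called 123 of 13566, or 0.907% (0.199% higher and 0.708% lower in mG), at a Benjamini-Hochberg adjusted p of 0.05, so a count of 0 in 10 is near the background. No member had an unadjusted p under 0.05 in this test either, where 14.6% of all tested genes did, and DESeq2 called none at its adjusted p, with 1 member under 0.05 unadjusted. Fitted values were above 0 for 5 members and below 0 for 5, with a median log2 fold change of 0.0028 for the members and 0.02 for all tested genes. The size of the fitted change, regardless of sign, had a median of 0.32 on the log2 scale for the members and 0.24 for all tested genes. The groups overlapped for all 10 members, whereas 20.8% of tested genes had groups that did not overlap. In the authors' deposited table, where 1248 of 20645 genes (6.05%) have an adjusted p under 0.05, no member does, and the lowest adjusted p is 0.34, for Plod2.

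**Figure D1:**
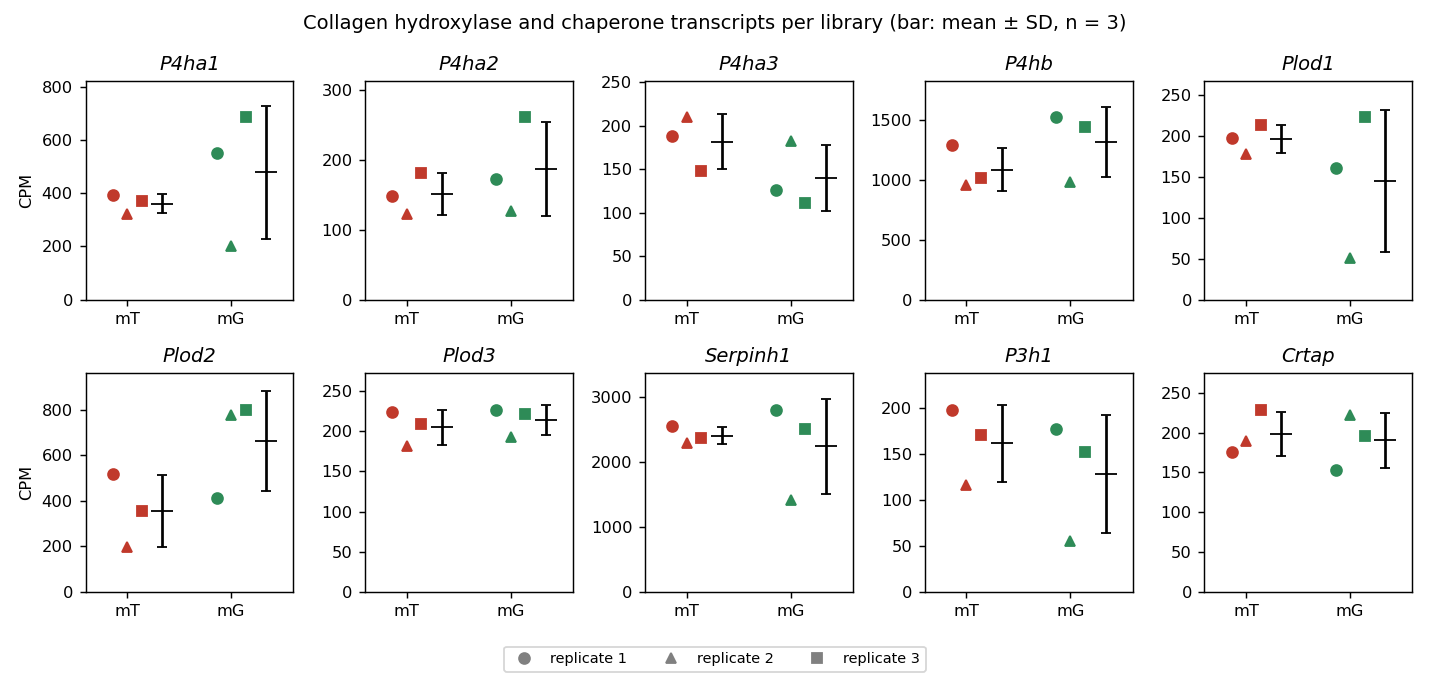
CPM of each member in the 3 mT and 3 mG libraries (symbols give the replicate number, bars the mean ± SD, n = 3, each axis from 0). The groups overlap in every panel, and mG replicate 2 holds the lowest P4ha1, Plod1, Serpinh1 and P3h1 values of the 6 libraries, while Plod2 there is 776 CPM.

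Per kilobase of merged exon length, the chaperone and the beta subunit stood far above the other members. Serpinh1 averaged 949 ± 196 CPM per kilobase over the 6 libraries (SD), the rank of 29 among tested genes, and P4hb 419 ± 87.2, at rank 90. Their ranges did not overlap with each other or with the next gene, Crtap, at 109 ± 16.1. Below them P4ha1 (102 ± 41.9), Plod2 (94.5 ± 44.4), P4ha3 (51.2 ± 12.3), Plod3 (46.4 ± 4.15), P3h1 (37.6 ± 13.4), P4ha2 (27.1 ± 8.15) and Plod1 (25.2 ± 9.24 CPM per kilobase) followed. Each neighbouring pair in that order from Crtap down had overlapping ranges, and Plod1 was below P4ha2 in 3 of 6 libraries, so the order of neighbours there is not set by these data. Even Plod1, the lowest member, was above 86.7% of tested genes.

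Among the prolyl 4-hydroxylase alpha subunits, P4ha1, the main form in most cells, and P4ha3 lay on opposite sides of 0. P4ha1 (ENSMUSG00000019916, chromosome 10) stood at 393, 321 and 369 CPM in mT replicates 1 to 3, against 549.7, 200.4 and 685 CPM in mG. Thus mG replicates 1 and 3 were above every mT library and mG replicate 2 was below them all. Its mean was 361 ± 36.9 CPM in mT and 478 ± 249.9 in mG (SD, n = 3), with a fold of 1.33 (95% interval 0.653 to 2.69) and adjusted p = 0.757 in edgeR's test. P4ha2 (ENSMUSG00000018906, chromosome 11), another catalytic form, typical of cartilage and bone cells, had 149, 123 and 182 CPM in mT against 173, 128 and 261 CPM in mG. The mG value was the higher one within each replicate number, by 1.16, 1.04 and 1.44 times, with adjusted p = 0.724. P4ha3 (ENSMUSG00000051048, chromosome 7), the least studied form, had 188, 209 and 147 CPM in mT against 125, 183 and 111 CPM in mG. It was the lower one in mG within each replicate number, at 0.668, 0.873 and 0.752 times, with adjusted p = 0.534 in edgeR's test, and 0.284 when the replicate number was a block. P4hb (ENSMUSG00000025130, chromosome 11), the beta subunit, had 955 to 1291 CPM in mT and 979.9 to 1521 CPM in mG, a fold of 1.21 (0.792 to 1.84).

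Of the lysyl hydroxylases, Plod2 had the largest fitted difference of the 10 members. Plod2 (ENSMUSG00000032374, chromosome 9), which hydroxylates the telopeptide lysines that form stable cross-links, stood at 516, 198 and 355 CPM in mT replicates 1 to 3, against 411, 776 and 801 CPM in mG. Both mG replicates 2 and 3 were above every mT library, while mG replicate 1 lay below mT replicate 1. The fold was 1.86 (95% interval 0.935 to 3.7), the log2 fold change 0.89 ± 0.41 (SE) and adjusted p = 0.387 in edgeR's test, and mG was higher in 2 of 3 replicate numbers. Without both replicate 2 libraries, chosen after their values were seen, the log2 fold change of Plod2 was 0.46 with adjusted p = 0.639 in edgeR's test. Plod1 (ENSMUSG00000019055, chromosome 4), the hydroxylase of lysines inside the helix, had 197, 178 and 213 CPM in mT against 160.02, 51.2 and 222 CPM in mG. A single library, mG replicate 2, lay far below the other 5, which overlapped, with adjusted p = 0.766. Plod3 (ENSMUSG00000004846, chromosome 5), which can also attach sugars to hydroxylysine, was the steadiest member, with 181 to 225 CPM in mT and 193 to 227 CPM in mG and a fold of 1.04 (0.816 to 1.34). Its highest library was 1.25 times its lowest, and 8.85% of the 1447 tested genes whose mean log2 CPM was 7 or more had a smaller ratio. Plod3 shares 529 exonic bases with Znhit1 on the opposite strand and Plod2 shares 346 with Gm38391, and without strand those reads cannot be told apart. Znhit1 had 2992 counts in all against 23023 for Plod3, and Gm38391 had 186 against 57116 for Plod2.

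The 3-hydroxylation complex and the chaperone showed no separation either. P3h1 (ENSMUSG00000028641, chromosome 4) had 198, 116 and 170.02 CPM in mT against 176, 55.3 and 151 CPM in mG. Again mG replicate 2 was lowest, and the mG value was the lower one within each replicate number, at 0.892, 0.477 and 0.891 times, with adjusted p = 0.815. Crtap (ENSMUSG00000032431, chromosome 9), the partner that stabilises P3h1, had 175 to 229 CPM in mT and 153 to 222 CPM in mG, a fold of 0.961 (0.701 to 1.32). In mG replicate 2 Crtap was 8.73 times P3h1 per kilobase, against 1.88 to 3.55 times in the other libraries. Serpinh1 (ENSMUSG00000070436, chromosome 7) had 2545, 2289 and 2370.5 CPM in mT against 2800.4, 1409 and 2498 CPM in mG, a fold of 0.931 (0.555 to 1.56) with adjusted p = 0.939. Over 5 libraries it ran from 2289 to 2800.4 CPM, and mG replicate 2 alone was below that range.

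**Figure D2:**
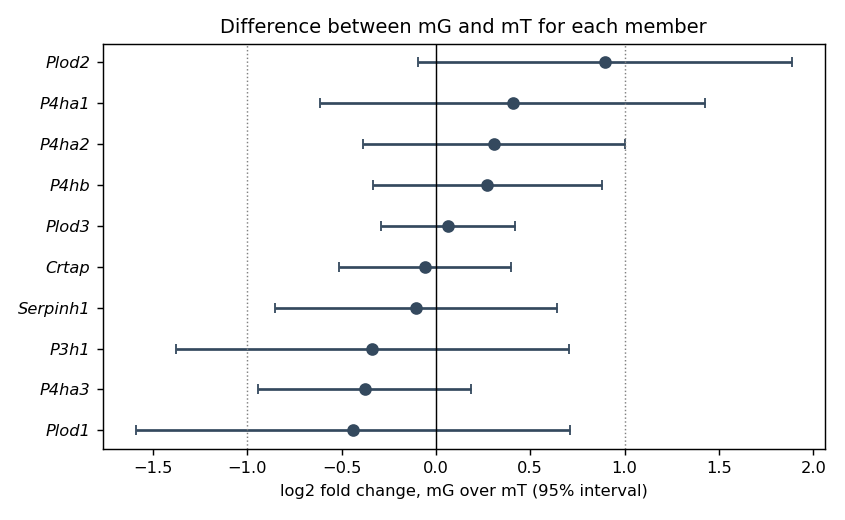
Log2 fold change of each member, mG over mT, with its 95% interval from the fit across all genes; dotted lines mark a 2-fold change either way. All 10 intervals include 0, and 5 lie within a 2-fold change, those of P4ha3, P4hb, Plod3, Serpinh1 and Crtap.

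The 95% intervals differed in width. For P4ha3, P4hb, Plod3, Serpinh1 and Crtap they lay within a 2-fold change in either direction. For P4ha1, P4ha2, Plod1, Plod2 and P3h1 they reached past it, so a 2-fold difference was not excluded. With the replicate number as a block no member passed, where 108 genes (0.796%, with 0.258% higher and 0.538% lower) did, and the unadjusted p of P4ha3 alone was under 0.05, at 0.0434, as was that of 16.7% of tested genes. The direction was the same within all 3 replicate numbers for 5 of 10 members, P4ha2, P4hb and Plod3 higher in mG and P4ha3 and P3h1 lower, against 40.8% of all tested genes.

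**Figure D3:**
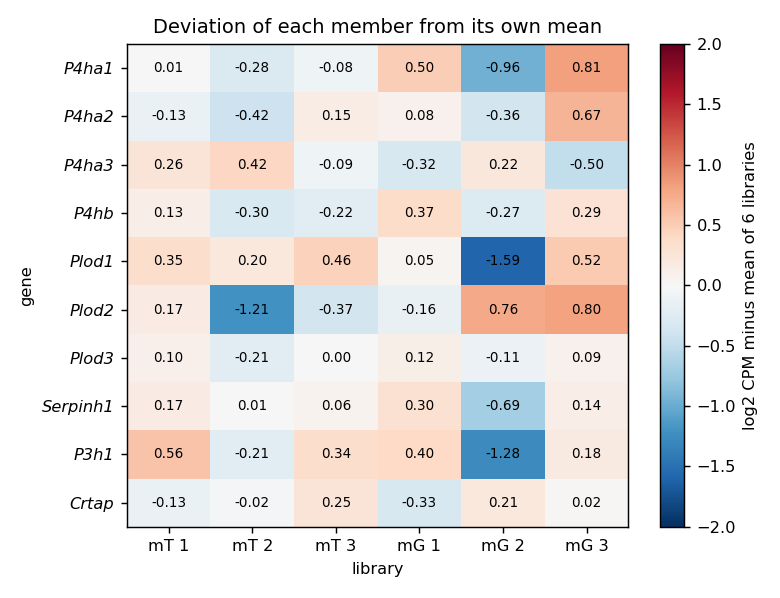
Log2 CPM of each member minus its own mean over the 6 libraries (colour and printed value), by library. In mG replicate 2 Plod1, P3h1, P4ha1 and Serpinh1 are 1.59, 1.28, 0.96 and 0.69 below their means (-1.59, -1.28, -0.96 and -0.69), and Plod2 is 0.76 above its mean.

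For several members the extreme library was mG replicate 2, the one with high cartilage transcripts. There Col2a1, the cartilage collagen, made up 19.6% of the fibrillar chain transcripts per kilobase, against 0.00276% to 0.107% in the other libraries. Sox9, the cartilage regulator, had 145 CPM there, 8.12 and 8.19 CPM in mG replicates 1 and 3, and 0.239 to 2.52 CPM in mT. Every mG library was thus above every mT library for Sox9. The part of these transcripts in the low Plod1, P3h1, P4ha1 and Serpinh1 values was not tested. Leaving out mG replicate 2, the log2 fold change of P4ha1 was 0.76 with adjusted p = 0.0788 in edgeR's test, and that of P4ha3 was -0.63 with adjusted p = 0.148. No member passed without it, though 362 of all genes did. Without mG replicate 3 instead, P4ha1 was at 0.06 with adjusted p = 0.982, and Plod1 ran from -0.89 without that library to -0.05 without mG replicate 2. Without mG replicate 2 Serpinh1 was at 0.13 and P3h1 at 0.01, both of opposite sign to the full fit. Without both replicate 2 libraries Serpinh1 was at 0.09, whereas P3h1 was at -0.18, the sign of the full fit.

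Ratios taken within a library do not depend on the scaling between libraries. Among the alpha subunits P4ha1 made up 53.3%, 47.4% and 54.1% of counts per kilobase in mT replicates 1 to 3, against 66.3%, 38.2% and 68.3% in mG. P4ha3 held 28.3% to 40.6% in mT and 14.5% to 45.7% in mG, and P4ha2 held 12% to 17.6% over all libraries, more than P4ha3 in mG replicate 3 only. Both groups overlapped in each of these shares, with exact two-sided permutation p of 0.6, 0.5 and 0.5 for P4ha1, P4ha2 and P4ha3. Among lysyl hydroxylases Plod2 held 54.8%, 35.6% and 45.8% in mT and 50.8%, 74.1% and 64.4% in mG, with an exact permutation p of 0.2. The share of Plod1 was 16.7%, 25.5% and 21.9% in mT and 15.7%, 3.9% and 14.2% in mG. Every mG library was below every mT library for Plod1, by means of 21.4% ± 4.42 and 11.3% ± 6.45 (SD, n = 3), and the exact permutation p of 0.1 is the smallest that 3 against 3 libraries allow. It was the 1 of 9 shares computed whose groups did not overlap, beside 23.1% of within-library ratios of gene pairs at large (mean log2 CPM of 7 or more). A family share is not a ratio of 2 genes, so that percentage is a rough guide only, and the count does not set Plod1 apart. Of the prolyl 3-hydroxylases, P3h1 and the related P3h3 had most of the transcripts and P3h2 at most 1.78%. The share of P3h1 was 31.3% to 49% in mT and 16.8% to 59% in mG.

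**Figure D4:**
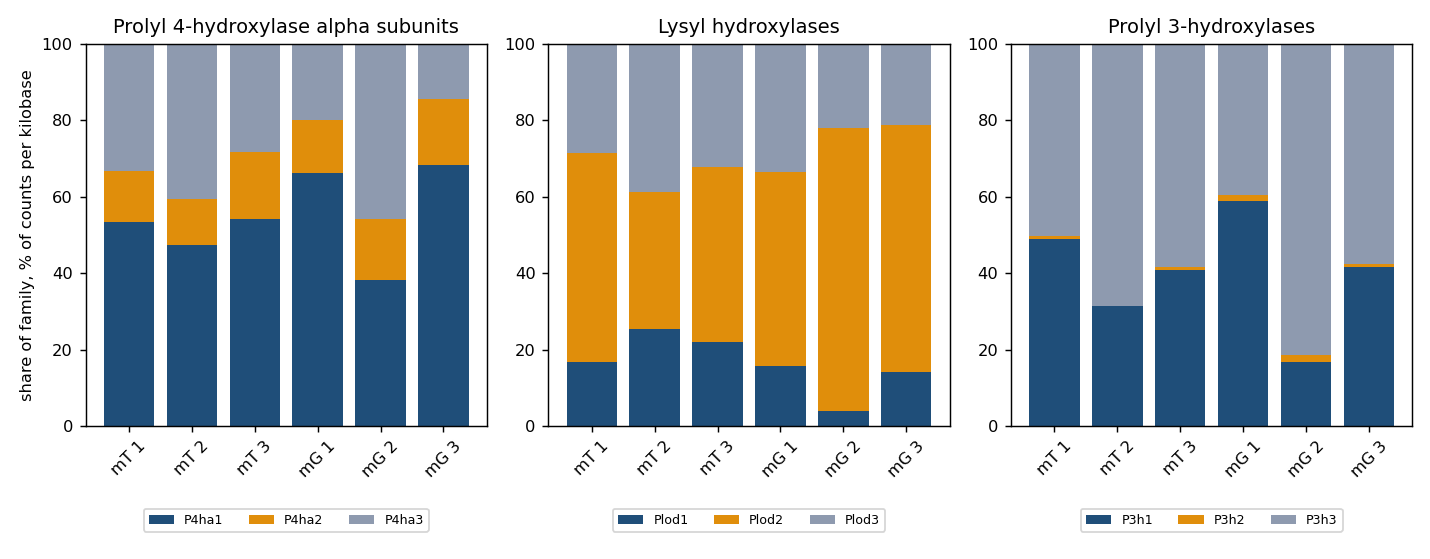
Share of each enzyme in its family, in percent of counts per kilobase of merged exon length, for the 6 libraries. Plod1 holds 16.7% to 25.5% of lysyl hydroxylase transcripts in mT and 3.9% to 15.7% in mG, and P4ha1 ranges from 38.2% to 68.3% within mG alone.

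Over all 45 pairs of members, the within-library ratio separated the groups in 6 pairs, or 13.3%. Among all pairs of tested genes at that level of 7 or more, the share was 23.1%, so the members' count is no sign of an unusual set, and the difference in share was not tested. The 6 pairs were P4ha1 with Plod1, P4ha1 with P3h1, P4ha2 with Plod1, P4ha3 with Plod2, P4hb with Serpinh1 and P4hb with P3h1. Per kilobase, P4ha1 was 3.28, 2.96 and 2.85 times Plod1 in mT and 5.65, 6.44 and 5.07 times in mG. In mG replicate 2, where both genes were low, that ratio was the highest of the 6 libraries. P4hb was 0.433, 0.356 and 0.365 times Serpinh1 in mT and 0.464, 0.594 and 0.492 times in mG. These pairs are named because their groups did not overlap, which was seen in the data, and each exact permutation p was 0.1, the smallest possible.

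The 250 bases before the start of these 4 genes are shown because P4ha1 with Plod1, and P4hb with Serpinh1, are 2 of the 6 pairs whose ratios separated the groups. They are RefSeq sequences of build GRCm38.p6, 5′ to 3′ on the strand of the gene; capitals mark matches, on either strand, to the hypoxia response core ACGTG, the CCAAT box, the GC box GGGCGG and the TATA box TATAAA.
P4ha1, chr10:59323046-59323295, plus strand: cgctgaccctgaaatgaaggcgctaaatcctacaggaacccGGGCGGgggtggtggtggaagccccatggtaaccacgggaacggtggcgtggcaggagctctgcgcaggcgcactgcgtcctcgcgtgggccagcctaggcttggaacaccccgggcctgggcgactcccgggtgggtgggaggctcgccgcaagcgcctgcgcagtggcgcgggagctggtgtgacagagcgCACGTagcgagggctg
Plod1, chr4:147936777-147937026, minus strand: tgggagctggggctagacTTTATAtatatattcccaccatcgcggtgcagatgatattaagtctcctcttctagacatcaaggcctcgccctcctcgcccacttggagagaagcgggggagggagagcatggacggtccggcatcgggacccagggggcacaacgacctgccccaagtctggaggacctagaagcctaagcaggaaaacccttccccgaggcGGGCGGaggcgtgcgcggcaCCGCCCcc
P4hb, chr11:120573254-120573503, minus strand: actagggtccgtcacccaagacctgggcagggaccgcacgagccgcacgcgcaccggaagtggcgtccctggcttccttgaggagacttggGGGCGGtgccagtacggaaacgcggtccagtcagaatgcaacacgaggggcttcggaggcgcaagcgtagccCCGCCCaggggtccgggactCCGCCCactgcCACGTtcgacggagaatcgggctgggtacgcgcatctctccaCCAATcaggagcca
Serpinh1, chr7:99353240-99353489, minus strand: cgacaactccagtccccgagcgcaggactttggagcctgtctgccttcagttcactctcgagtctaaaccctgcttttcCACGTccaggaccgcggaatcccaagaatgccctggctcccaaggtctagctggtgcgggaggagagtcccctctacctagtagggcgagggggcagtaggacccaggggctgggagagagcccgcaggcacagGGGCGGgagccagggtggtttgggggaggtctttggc

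A RefSeq start was at hand for 9 of the 10 members, in 10 windows, with none for Plod2. ACGTG occurred in 6 of the 10 member windows and in 16.6% of all 32851 windows of that length, among them those of P4ha1, P4hb and Serpinh1 but not of Plod1. GGGCGG occurred in 7 of 10, against 32.7% of all windows, CCAAT in 4 against 33.8%, and TATAAA in 2 against 12.4%. The heat shock motif GAANNTTC, also searched on both strands, occurred in 0 member windows and 6.69% of all. The member windows were richer in G and C, with a median of 62.6% against 52.4%, and no motif here overlapped another except repeats of GGGCGG in P4ha3. A match of letters is a description and not a binding site.

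The chains on which these enzymes act were compared next. Fibrillar collagen transcripts summed to 18706 to 25498 CPM in mT and 15135 to 31273 CPM in mG. None of the 11 tested fibrillar chains passed, 7 being fitted above 0, with a median log2 fold change of 0.24. Col11a1, a minor fibrillar chain, had the lowest adjusted p of the list at 0.12, with 588 ± 236 CPM in mT and 1639 ± 215 in mG. Col2a1 had 0.709 to 28.7 CPM in 5 libraries and 2717 CPM in mG replicate 2, and its log2 fold change of 5.84 became -1.79 without that library. Of 11 network, beaded and other chains 1 passed, Col12a1, a chain that decorates fibrils, which fell from 12987 ± 2295 to 1814 ± 274 CPM (log2 fold change -2.84 ± 0.35, adjusted p = 0.0281, or 0.0804 with the replicate block). It also lost its call without any one library other than mG replicate 2, at adjusted p from 0.0757 to 0.146. Col16a1 had 269 ± 68.2 and 101 ± 35.6 CPM, with adjusted p = 0.121 in edgeR's test and 0.0452 with the block, and Col6a3 2017 ± 420.02 and 851 ± 261 CPM with adjusted p = 0.152. The median of that list was -0.42, with 4 chains fitted above 0 and 7 below. Col14a1 was higher in mG, at 14.9 ± 15.7 and 158 ± 49 CPM without overlap of the groups (adjusted p = 0.2 in edgeR's test). Col8a1 was also higher, at 540 ± 139 and 1058 ± 413 CPM (adjusted p = 0.299). In the authors' deposited table, where 6.05% of genes have an adjusted p under 0.05, more of these chains do. There it was 0.016 for Col11a1, 0.0346 for Col2a1, 4.15e-10 for Col12a1, 0.0273 for Col16a1 and 0.0503 for Col6a3.

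Set against the summed fibrillar chains per kilobase in the same library, the chaperone was the most abundant member. Serpinh1 amounted to 36.1%, 44.5% and 35.5% of the chains in mT and 41.2%, 38.4% and 30.6% in mG. In mG replicate 2, where both Serpinh1 and the chains were low, the ratio lay among the others, but this depends on the chains summed. Col2a1 was 19.6% of the chains there, and Col1a1 with Col1a2 37.6%, against 61.4% to 70.4% in the other libraries. Against Col1a1 and Col1a2 only, the difference in mean log2 ratio for Serpinh1, mG minus mT, was 0.28, of opposite sign to -0.08 with all chains. P4hb amounted to 13% to 15.9% in mT and 15.1% to 22.8% in mG, and P4ha1 to 3.28% to 3.7% and 3.24% to 4.99%. Plod2 amounted to 1.75% to 3.32% in mT and 2.74%, 9.58% and 4.45% in mG replicates 1 to 3, with a difference in mean log2 ratio of 1.02 and an exact permutation p of 0.2. Plod1 was the one member of 10 whose ratio did not overlap, with 1.01% to 1.25% in mT and 0.851%, 0.504% and 0.983% in mG, an exact permutation p of 0.1. Among tested genes 20.8% of single genes, and 23.1% of gene-pair ratios, did not overlap. Neither is a ratio to summed chains, for which no share over all genes was computed, so 1 of 10 does not set Plod1 apart.

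**Figure D5:**
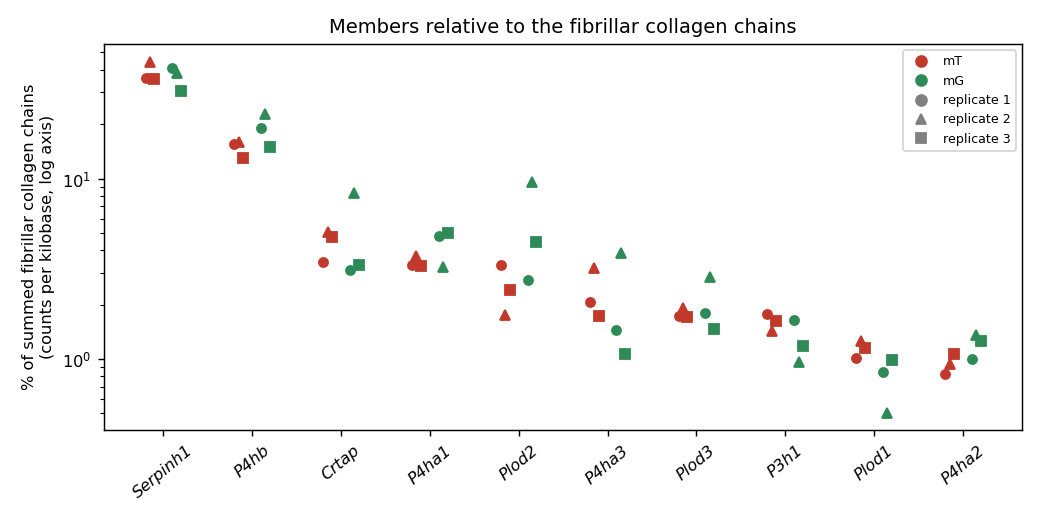
Each member as a percentage of the summed fibrillar collagen chains in the same library, both as counts per kilobase (log axis), for mT and mG with the replicate number by symbol. Serpinh1 lies between 30.6% and 44.5% in all 6 libraries, and Plod1 lies at 1.01% to 1.25% in mT and below 1% in mG.

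The other genes of the pathway gave few calls. The partners of the members in the endoplasmic reticulum, among them the cyclophilin Ppib, the prolyl isomerase Fkbp10 and the collagen galactosyltransferase Colgalt1, had 0 of 11 tested genes past the threshold, 5 fitted above and 6 below 0, and a median of -0.02. Tmem38b, an ion channel of the endoplasmic reticulum, had 41.4 ± 7.71 CPM in mT against 79.96 ± 39.3 in mG (adjusted p = 0.322), P3h4 140.3 ± 2.92 and 178 ± 36.1 (0.437) and the isomerase Fkbp14 110.2 ± 6.57 and 94.8 ± 5.07 CPM (0.461). Of 11 genes of procollagen export none passed, with a median of 0.02, and Mia2 had the lowest adjusted p of 0.189 at 84.8 ± 3.85 and 62.9 ± 6.01 CPM. Of 19 genes of protein folding and the unfolded protein response none passed, 12 fitted above and 7 below 0, with a median of 0.03. The smallest adjusted p of that list, 0.156, 0.271 and 0.333, were those of Ddit3 (48.4 ± 9.44 and 24.8 ± 6.95 CPM), Atf4 (316 ± 20.4 and 228 ± 34.2) and Herpud1 (94.8 ± 14 and 62.9 ± 19.3). These genes and Ero1a were lower in mG within each replicate number. Sdf2l1, Pdia3, Pdia4, Dnajb11 and Creld2 were higher in mG within each replicate number, and for Sdf2l1 the groups did not overlap.

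Hypoxia, which is known to raise P4ha1, P4ha2 and Plod2 in many cells, was read from 17 genes, and 0 passed. Of these 13 were fitted below 0 and 4 above, with a median of -0.05, beside 0.02 for all tested genes. Their sum was 2582 to 3132 CPM in mT, and 3346, 1383 and 3133 CPM in mG replicates 1 to 3. Only mG replicate 2 was thus below the mT libraries. Of the genes fitted below 0, Ldha, Pgk1, Slc2a1, Egln1, Ankrd37, Adm and Kdm3a were lower in mG for replicate number 2 alone. Vegfa, Pdk1 and Bnip3 were lower for replicate numbers 1 and 2, Ddit4 for 1 and 3, and Epas1 and Car9 for all 3. The list also holds the factor genes Hif1a and Epas1. Epas1, the hypoxia-inducible factor HIF-2 alpha, had 151 ± 59.1 CPM in mT against 24.9 ± 23.7 in mG, with adjusted p = 0.18, and 0.0276 without mG replicate 2. Ndrg1 had 8.31 ± 4.72 and 27.1 ± 15.3 CPM (adjusted p = 0.264) and Car9 2.23 ± 0.515 and 1.18 ± 0.37 CPM (0.365). Of 8 other prolyl or lysyl dioxygenases, including the oxygen sensors Egln1, Egln2 and Egln3, none passed. The one with the lowest adjusted p was P4htm, a membrane prolyl hydroxylase that is not a collagen enzyme, at 10.7 ± 1.64 and 5.59 ± 0.566 CPM with adjusted p = 0.147. None of 3 tested genes of ascorbate uptake passed. Of 9 tested cartilage genes none passed, 8 were fitted above 0 and the median was 3.47. That median was the value of Hapln1, with 1102 counts in mG replicate 2 and 0 to 47 in the others. With the replicate block Hapln1 was at -0.62, and Comp, at 2.66 in the main fit, at -3.9. The groups did not overlap for 6 of the 9, against 20.8% of all tested genes. Of these Sox9, Sox5, Sox6, Col11a1 and Matn3 were higher in mG and Runx2 lower. With the block Sox9, Sox5, Sox6, Col11a1 and Matn3 stayed above 0, at 3.43, 3.52, 3.72, 1.55 and 3.77. In this list Sox5 (1.51 ± 1.2 and 15.4 ± 5.62 CPM) and Matn3 (0.227 ± 0.181 and 3.18 ± 1.26 CPM) had adjusted p = 0.154 and 0.077 in edgeR's test. In the authors' deposited table the adjusted p was 0.00432 for Epas1, 0.000603 for Sox5 and 6.07e-07 for Matn3. It was 0.0618 for Ndrg1, 0.29 for Car9 and 0.144 for P4htm.

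The mean standardized profile of the 10 members was highest in mG replicate 3, at 0.63, and lowest in mG replicate 2, at -0.81, with mT replicate 2 next at -0.50. Of 9232 other genes whose mean log2 CPM was 3 or more, the 5 with the most similar profile over the 6 libraries were Rbms3, Mettl23, Rpsa-ps10, Colgalt1 and Rpn2, with Pearson r from 0.982 to 0.998. Rbms3, the most similar, had 72.3, 56 and 69.9 CPM in mT against 70.4, 49.4 and 80.9 CPM in mG. Of the 5 only Colgalt1, at r of 0.984, is in a gene list used here, so the 5 are not a set of collagen genes. Colgalt1 attaches galactose to the hydroxylysine that the Plod enzymes make, and had 245, 200.4 and 243 CPM in mT against 245, 179 and 258 CPM in mG. Rpn2, a subunit of the oligosaccharyltransferase of the endoplasmic reticulum, had 469, 381 and 450.3 CPM in mT and 483, 369 and 530.7 CPM in mG. These r values describe 6 libraries and carry no p.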

How the data were processed

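RNA was extracted from sorted lung MSC and made into unstranded libraries, per the labels' protocols. Tools listed in the submitters' processing notes are STAR, edgeR 4.0, Trimmomatic 0.38, cutadapt 5.0 and FastQC 0.11.9; the build, the annotation and the counter are not stated in the sources used here. The authors deposited whole-number counts per gene, which were the only values tested. Their RPKM and their common-total signal (TMM columns) were, per the file headers, scaled by the authors; RPKM is used in 1 observation only. The authors' deposited table also holds their own log2 fold changes, p-values, −log10 p and a likelihood-ratio score; only values named as theirs were taken from it.

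The test was edgeR's quasi-likelihood test (version 4.0.16, under R 4.3.3; glmQLFit, glmQLFTest; TMM factors 0.926 to 1.134; filterByExpr, minimum count 10; Benjamini-Hochberg over 13566 genes at 0.05). Each SE is the absolute log2 fold change divided by the square root of the test's F statistic. Intervals are 95%, from that SE and a t distribution with the fit's degrees of freedom, are approximate, and cover the spread between libraries. For scale, 3 counts correspond to 0.154 to 0.178 CPM. Rows without a gene name hold at most 0.0352% of counts. Levels between genes use merged exon length from GENCODE M21, matched by Ensembl ID. Shares and ratios were compared with exact permutation tests. Alternatives were RLE and upper-quartile normalization, 2 filters, DESeq2 1.42.0, limma-voom (limma 3.58.1), the replicate block and omitted libraries.

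Genes named are all members, called list genes, up to 3 per list with the smallest adjusted p under 0.5, and the 5 most similar genes; other genes appear as background values. Members and lists were chosen with earlier results of these data known. The fits were run on simulated counts with the same dispersion for every gene, no replicate effect and no outlying library. That run therefore does not bear on how the fits handle a library such as mG replicate 2. Replicate numbers 1 to 3 occur in both groups, and deviations from group means of same-numbered libraries correlated at 0.244, 0.185 and 0.3, which meets the rule for pairing, though no label explains the numbers. The main fit and the exact permutation tests were nevertheless unpaired, as designed, so 0.1 is the smallest p of the unpaired test; pairing entered only through the replicate block and the ratios within replicate numbers.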

Additional observations from a re-analysis of the deposited data

How the results depend on the processing

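The count of 0 members past the threshold held under all 14 alternatives, and none of the 140 alternative member values passed; 7 changed sign. Over all genes the count of 123 (27 higher, 96 lower) became 960 with DESeq2 (476 and 484), 17 higher genes with limma-voom, and 20 to 362 (0 to 132 and 20 to 230) with libraries left out. With DESeq2 1 fibrillar chain, 4 other chains, 1 folding gene, 2 hypoxia genes, 3 cartilage genes and 1 other dioxygenase passed; left-out libraries gave 0 to 1 other chains and 0 to 1 hypoxia genes. The replicate block gave 108 calls, ended that of Col12a1, added that of Col16a1 and left every other named gene on its side of the threshold.

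With libraries left out, log2 fold changes ranged from -0.0082 to 0.51 for P4ha2, -0.023 to 0.13 for Plod3, -0.30 to 0.13 for Serpinh1, -0.64 to 0.012 for P3h1, -0.23 to 0.076 for Crtap and -1.79 to 6.59 for Col2a1; without a change of sign, they ranged from 0.06 to 0.76 for P4ha1 and -0.89 to -0.05 for Plod1. The difference in share ranged from -11.1 to 9.99 points for P3h1 and -10.5 to 10.5 for P3h3, and was 0.181 and -1.89 with the listed gene length. The log2 ratio to fibrillar chains ranged from -0.86 to 0.073 for P4ha3, -0.12 to 0.36 for Plod3, -0.17 to 0.047 for Serpinh1 and -0.44 to 0.27 for Crtap. Against Col1a1 and Col1a2 only it was 0.050 for P4ha3 and 0.28 for Serpinh1, with the listed length 0.00073 for Serpinh1, and without length -0.076 for Crtap. The cause was not tested. Omitting both replicate 2 libraries and using listed lengths were chosen after seeing the data. With 3 libraries a group, no unpaired exact permutation p can go below 0.1.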

Other observations

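The gene length listed in the deposited table bears on any comparison of levels between the members. For 19950 of the 20568 genes whose ID is in GENCODE M21 (97%), and for all 10 members, the listed length equalled the summed length of every exon record of every transcript plus the number of those records. Exons shared by several transcripts are then counted several times. For P3h1, with 118 exon records, the listed length was 20821 bases against 3846 bases of merged exons, 5.41 times as long. For Serpinh1 it was 10599 against 2443 bases, 4.34 times, and for Crtap, with 9 records, 2298 against 1772 bases, 1.3 times. In the authors' deposited RPKM, which divide by the listed length, P4hb ranks first of the members at 283 and Serpinh1 second at 209, whereas by merged length Serpinh1 ranks first. P3h1 ranks 10 by the authors' RPKM and 8 by merged length. A factor that is the same in all libraries does not move a comparison of mG with mT for 1 gene, and the counts tested here do not use it.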
